A study of Mus musculus with 8 samples.

Results

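Integrins are cell surface receptors built from 1 alpha and 1 beta subunit, which bind extracellular matrix outside the cell and reach the actin cytoskeleton through adaptors on the short beta tail. The pairing of subunits sets the ligand: Itgb1 joins many alpha partners, whereas Itgb4 joins the alpha 6 chain and Itgb5 the alpha v chain. In mouse embryonic stem (ES) cells, laminin and fibronectin receptors that contain the beta 1 chain carry much of the adhesion to matrix. Described here are 10 integrin subunit genes, 7 alpha (Itga2, Itga3, Itga5, Itga6, Itga7, Itga9 and Itgav) and 3 beta (Itgb1, Itgb4 and Itgb5), of 18193 genes named on the array. They were chosen by symbol, and all 30 probe sets annotated to exactly 1 of these symbols were read, out of 45037 probe sets tested.

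RNA was measured on 8 one-colour arrays: 4 of ES cells treated with Ctr9 esiRNA, and 4 of ES cells treated with luciferase esiRNA as transfection control. Such an esiRNA is a mixture of short interfering RNAs cut enzymatically from 1 long double-stranded RNA, and Ctr9 is a subunit of the Paf1 complex, which accompanies RNA polymerase II during elongation. Cells of both groups carried the strain label Oct4-Gip, were at passage 25, received the esiRNA by lipofection and were labelled day 4. Values are log2 probe set signals, and a difference is the mean of the Ctr9 esiRNA arrays minus the mean of the luciferase esiRNA arrays. Transcripts were measured, and neither subunit protein nor its pairing was. The labels do not state if replicates were separate cultures, and the p-values therefore measure only how these samples varied, which could be technical variation.

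Correlations over probe sets were 0.997 to 0.998 within groups and 0.992 to 0.994 between them, and the small number of arrays limits the precision. Ctr9 itself was not clearly lower. Its brightest probe set differed by -0.09 (SE 0.047, limma adjusted p = 0.209). From brightest to dimmest its 5 probe sets differed by -0.09, -0.15, -0.18, 0.29 and 0.27, with 2 lower, 1 higher and 2 not past the test. The groups are therefore those the labels name. On the second principal component the luciferase arrays 1 and 2 lay apart from arrays 3 and 4, and results were repeated without each pair. All 10 ES cell markers read above the median probe set (5.75), the lowest at 10.27 in any array, and 6 of them were lower with Ctr9 esiRNA. Of 12 trophoblast markers, 9 were higher, and their summed linear signal was 5565 to 5976 in the Ctr9 esiRNA arrays, against 2311 to 2695 in the luciferase arrays. Most of that difference came from the keratin genes Krt8 and Krt18: without them, a choice made after seeing the data, the sums overlapped at 2082 to 2301 with Ctr9 esiRNA, against 1702 to 2102, although 7 of the 10 markers left were higher. For 10 endoderm markers, 3 of them higher, the sums were 815 to 890 with Ctr9 esiRNA, against 609 to 653. For 12 fibroblast markers, 3 of them higher, they were 527 to 546 with Ctr9 esiRNA, against 458 to 493. Beside these marker counts, 15.8% of all genes were higher and 15% lower on their brightest probe set. Log2 signals have no zero, but 8 of the 12 fibroblast and 6 of the 10 endoderm markers, against 2 of the 12 trophoblast markers, read below the median probe set. The part of these cell types in the integrin differences was not tested, and in bulk RNA fewer cells of a type and less RNA per cell cannot be told apart.

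Both a laminin receptor alpha chain and the shared beta 1 chain were higher after Ctr9 esiRNA, while 3 alpha chains were lower. Itga3 rose 1.77-fold and Itgb1 rose 1.44-fold, each on its brightest probe set. Itga9 fell by 46.8%, Itga5 fell by 20.4% and Itga6 fell by 13.6%. Itga2, Itga7, Itgav, Itgb4 and Itgb5 did not pass the test, which was limma's moderated test with Benjamini-Hochberg adjustment over all 45037 probe sets and a threshold of 0.05. By probe set, 3 of 19 alpha probe sets were higher and 6 lower, and 4 of 11 beta probe sets were higher and 0 lower. Without luciferase arrays 1 and 2, the alpha split turned to 4 higher and 3 lower. With all 8 arrays, 13 of the 30 probe sets were called (43.3%), beside 24.9% of all probe sets called in either direction (11.8% higher, 13.1% lower). Of the 30, 20 lie above the median probe set and hold 11 of the 13 calls. Several calls read the same gene again, with 4 for Itgb1 and 3 each for Itga3 and Itga9. The groups did not overlap for 17 of the 30, beside 28.6% of all probe sets. By gene, 5 of 10 were called, beside 30.8% of all genes, and the groups did not overlap for the brightest probe set of 5, beside 36.6% of all genes. The 5 called genes lie among the 8 whose brightest probe set is above the median probe set, where 42.1% of all genes were called. The median difference was 0.03 for the 7 alpha genes and 0.08 for the 3 beta genes, beside 0.0036 for all genes. Single genes therefore moved in opposite directions within a list whose middle hardly differed from that of the array.

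**Figure D1:**
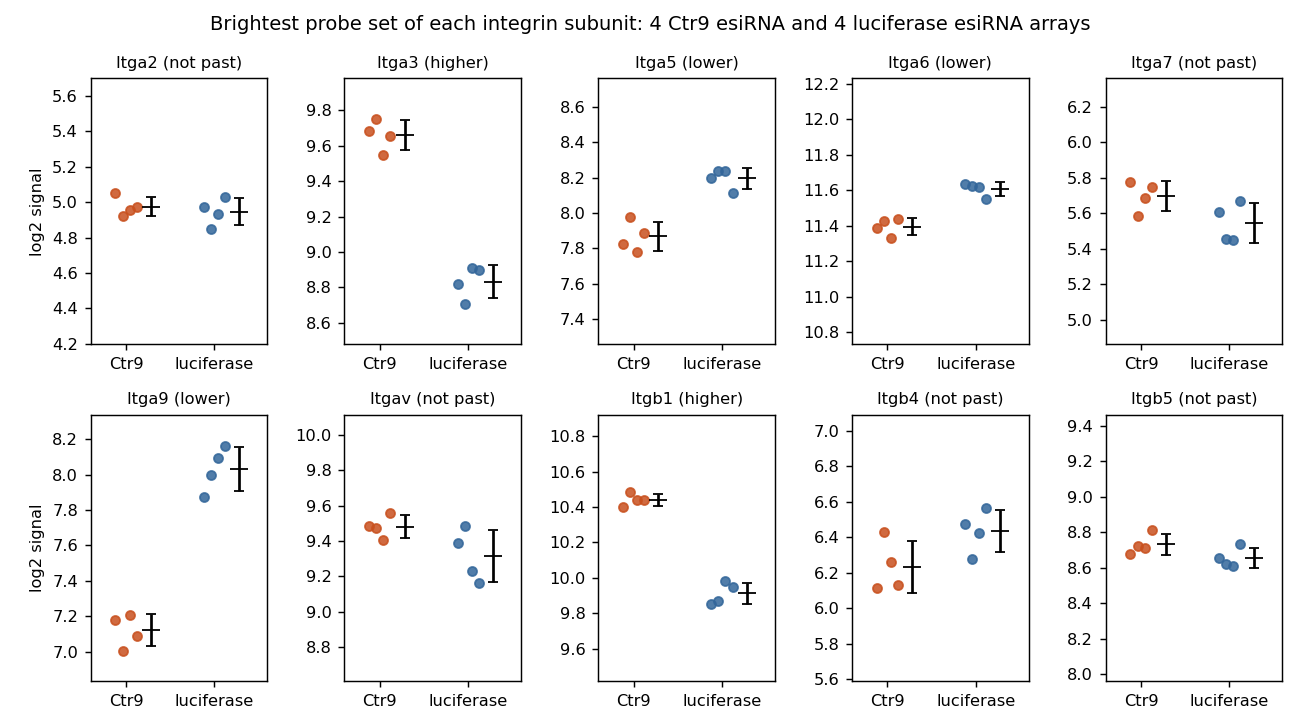
Log2 signal of the brightest probe set of each of the 10 integrin subunit genes, with the 4 Ctr9 esiRNA arrays left and the 4 luciferase esiRNA arrays right; points are arrays, and the bar beside them is the mean ± SD. Every panel spans the same 1.5 log2 units, so distances compare between panels while levels do not; Itga3 and Itgb1 are higher and Itga5, Itga6 and Itga9 lower without overlap.

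The promoter windows of Itga3 and Itgb1, the alpha and beta subunits that rose, and of Itga5, a subunit that fell, are shown because these genes moved together or apart across the same arrays. Each window runs from 250 bases before to 50 bases after an annotated transcript start (RefSeq, GRCm38.p6). It is written on the gene's strand from 5′ to 3′, with capitals at matches on either strand (so GGGCGG or its reverse complement) to the GC box GGGCGG or to GGAATG, the core letters bound by TEAD factors.
Itga3 (chr11:95076665-95076964, minus strand): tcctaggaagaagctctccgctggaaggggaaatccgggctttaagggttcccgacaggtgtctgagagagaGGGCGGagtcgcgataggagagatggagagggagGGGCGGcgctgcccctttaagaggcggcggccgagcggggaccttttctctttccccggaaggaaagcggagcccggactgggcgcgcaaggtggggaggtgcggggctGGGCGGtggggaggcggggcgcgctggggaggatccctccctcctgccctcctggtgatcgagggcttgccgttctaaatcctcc
Itgb1 (chr8:128685404-128685703, plus strand): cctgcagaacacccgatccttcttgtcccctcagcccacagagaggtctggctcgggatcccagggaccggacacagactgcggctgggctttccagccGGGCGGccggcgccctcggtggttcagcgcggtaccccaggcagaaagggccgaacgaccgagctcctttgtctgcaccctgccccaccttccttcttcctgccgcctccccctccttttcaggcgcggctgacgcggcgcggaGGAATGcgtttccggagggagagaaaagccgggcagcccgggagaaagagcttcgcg
Itga5 (chr15:103366742-103367041, minus strand): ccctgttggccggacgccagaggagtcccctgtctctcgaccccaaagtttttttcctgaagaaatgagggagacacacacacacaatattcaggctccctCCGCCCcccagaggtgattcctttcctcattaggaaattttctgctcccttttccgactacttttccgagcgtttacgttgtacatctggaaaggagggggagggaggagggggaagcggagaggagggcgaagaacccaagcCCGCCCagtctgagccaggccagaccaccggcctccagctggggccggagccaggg

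The Itga3 window shown holds 3 GC boxes, that of Itga5 holds 2 and that of Itgb1 holds 1, and 35.7% of the 32851 windows in the table hold at least 1. The Itga3 start used lies 130 bases inside the outermost annotated start of the gene. The TEAD letters occur once, in the Itgb1 window, and 14.7% of all windows hold them. The CArG box, the motif of the serum response factor, was found in none of the 3 windows and in 1.63% of all windows. The GC box and the TEAD letters share no base in these windows. A match describes letters and is not a measured binding site. Of the 10 members, 7 have a window in the table, and that of Itga9 was not used because it starts 104983 bases inside the gene. The window of Itgb5 holds 3 GC boxes and those of Itga2 and Itgav 1 each, and none of these genes passed the test. The start of the Itgav window lies 2094 bases inside the outermost annotated start of that gene. A second Itga3 window, whose start lies 7646 bases inside the outermost annotated start, holds 1 GC box.

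Among the laminin receptor chains, Itga3 was higher and Itga6 lower. Itga3, which with Itgb1 binds laminins of epithelial basement membranes, read 9.68, 9.75, 9.55 and 9.66 in the 4 Ctr9 esiRNA arrays, against 8.82, 8.71, 8.91 and 8.90 in the 4 luciferase arrays. All Ctr9 esiRNA arrays lay above all luciferase arrays, a difference of 0.83 (SE 0.062, limma adjusted p = 8.7e-06). Its mean was 9.66 ± 0.083 with Ctr9 esiRNA and 8.83 ± 0.093 with luciferase esiRNA (SD, n = 4 each). The other 2 Itga3 probe sets rose by 0.70 (SE 0.053) and 0.60 (SE 0.049), also without overlap. Itga3 is thus read alike by all 3 of its probe sets, each above the median probe set.

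Itga6 pairs with Itgb1 or Itgb4 and is a laminin receptor chain long used as a surface marker of stem cells. Its brightest probe set read 11.39, 11.42, 11.33 and 11.44 in the Ctr9 esiRNA arrays, against 11.63, 11.62, 11.62 and 11.55 in the luciferase arrays. The groups did not overlap, but the difference was small at -0.21 (SE 0.046, limma adjusted p = 0.00716). Its mean was 11.39 ± 0.049 with Ctr9 esiRNA and 11.61 ± 0.039 with luciferase esiRNA (SD, n = 4 each). The other Itga6 probe set read 10.54, 10.49, 10.44 and 10.48 with Ctr9 esiRNA, against 10.89, 10.83, 10.81 and 10.63 with luciferase esiRNA, a difference of -0.30 (SE 0.061, limma adjusted p = 0.0047). Both Itga6 calls ended without luciferase arrays 1 and 2, at -0.19 (limma adjusted p = 0.0621) and -0.23 (limma adjusted p = 0.0522).

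Itga7, the laminin receptor chain of muscle, is read by 1 probe set below the median probe set. It read 5.77, 5.58, 5.69 and 5.75 in the Ctr9 esiRNA arrays, against 5.61, 5.45, 5.45 and 5.67 in the luciferase arrays, and the groups overlapped. The difference of 0.15 (95% interval 0.0030 to 0.30, limma adjusted p = 0.134) did not pass.

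Of the receptor chains that recognise the Arg-Gly-Asp (RGD) sequence, Itga5 was lower and Itgav did not pass. Itga5, which with Itgb1 forms the classical fibronectin receptor, read 7.83, 7.98, 7.78 and 7.89 in the Ctr9 esiRNA arrays, against 8.20, 8.24, 8.24 and 8.11 in the luciferase arrays. Every Ctr9 esiRNA array lay below every luciferase array, a difference of -0.33 (SE 0.056, limma adjusted p = 0.00166). Its mean was 7.87 ± 0.084 with Ctr9 esiRNA and 8.20 ± 0.058 with luciferase esiRNA (SD, n = 4 each). The call rests on this probe set, whose name ends in _s_at, Affymetrix's mark for probes shared by several transcripts. The next brightest Itga5 probe set differed by -0.25 (SE 0.085, limma adjusted p = 0.0593) and a dim one by -0.19 (SE 0.069, limma adjusted p = 0.0728). For both, every Ctr9 esiRNA array lay below every luciferase array. The first passed without luciferase replicate 2 (limma adjusted p = 0.0474), with dim probe sets left out (0.0292) and with a trended robust prior (0.0371), and the second passed without luciferase replicate 1 (0.0430). The dimmest Itga5 probe set differed by -0.0087, and with the mean of all 4 probe sets in place of the brightest, Itga5 fell by 0.19 and still passed.

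Itgav, whose chain pairs with Itgb5 and Itgb1 among others and binds vitronectin and fibronectin, read 9.48, 9.47, 9.40 and 9.56 on its brightest probe set in the Ctr9 esiRNA arrays. The luciferase arrays read 9.39, 9.49, 9.23 and 9.16 on the same Itgav probe set, with arrays 1, 3 and 4 below all Ctr9 esiRNA arrays and array 2 among them. The difference was 0.16 (95% interval 0.00032 to 0.33, limma adjusted p = 0.141). The remaining 4 Itgav probe sets differed by -0.12 to 0.13 and none passed. Itgav did pass without luciferase replicate 2 (0.22, limma adjusted p = 0.0445), without luciferase arrays 1 and 2 (0.28, limma adjusted p = 0.0176) and with a trended robust prior (0.16, limma adjusted p = 0.0475).

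Itga9 showed the largest difference of the 10 genes in size. Its product pairs with Itgb1 and binds tenascin C, osteopontin and the alternatively spliced EIIIA segment of fibronectin. Itga9 read 7.178, 7.007, 7.207 and 7.090 in the Ctr9 esiRNA arrays, against 7.875, 7.998, 8.091 and 8.164 in the luciferase arrays. The groups lay far apart compared with their spread, at a difference of -0.91 (SE 0.072, limma adjusted p = 1.16e-05). Its mean was 7.12 ± 0.091 with Ctr9 esiRNA and 8.03 ± 0.12 with luciferase esiRNA (SD, n = 4 each). On the next brightest probe set Itga9 fell by 0.74 (SE 0.049, adjusted p = 3.73e-06 in the limma fit). On the dimmest, Itga9 fell by 0.29 (SE 0.064, adjusted p = 0.00762 in the limma fit), a call that ended without luciferase arrays 1 and 2 (limma adjusted p = 0.0675). All 3 Itga9 probe sets were lower without overlap.

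Itga2, a collagen receptor chain that pairs with Itgb1, is read by 1 dim probe set. It read 5.05, 4.92, 4.96 and 4.97 with Ctr9 esiRNA, against 4.97, 4.85, 4.93 and 5.03 with luciferase esiRNA. The groups overlapped, and the difference of 0.03 (95% interval -0.09 to 0.15, limma adjusted p = 0.764) did not pass.

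**Figure D2:**
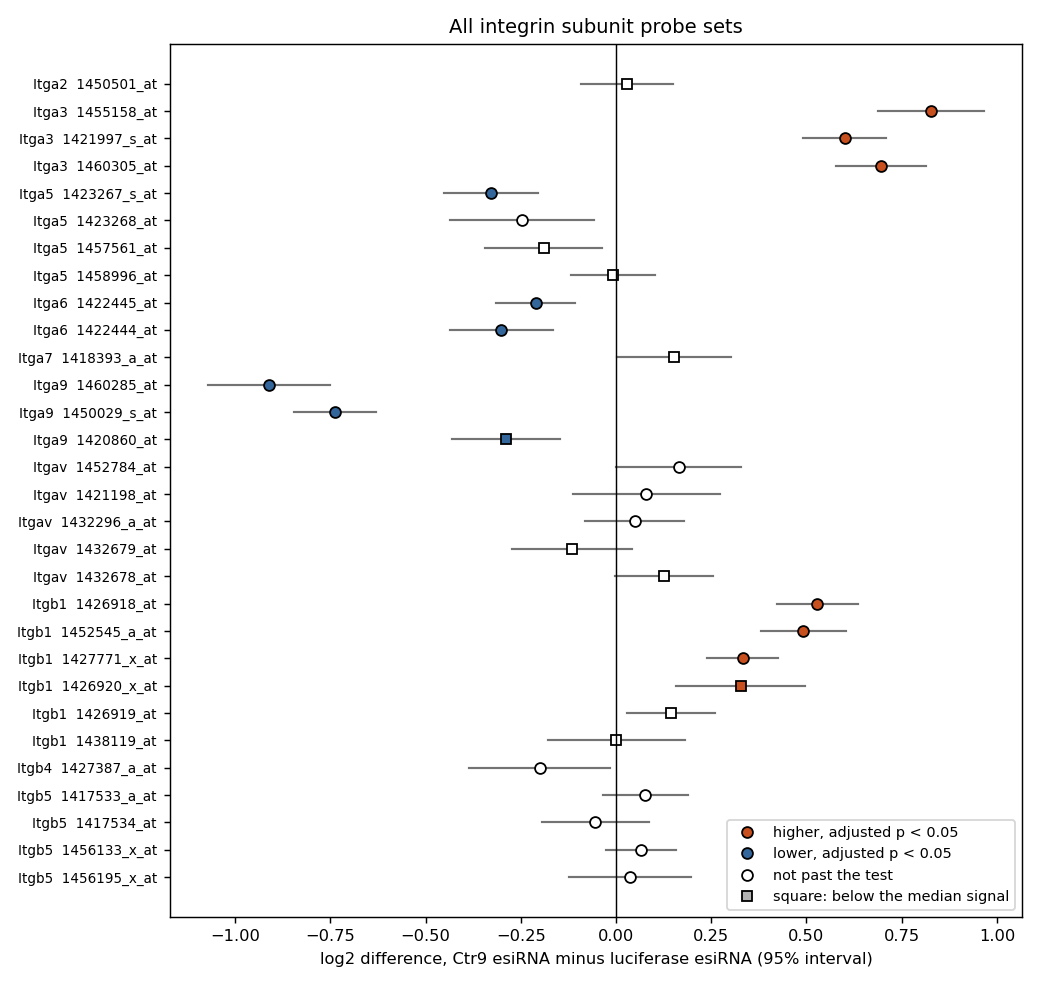
Log2 difference (Ctr9 esiRNA minus luciferase esiRNA) of all 30 integrin subunit probe sets with its 95% interval from limma, ordered by gene and, within a gene, from brightest to dimmest. Orange marks higher and blue lower at an adjusted p under 0.05, white marks probe sets that did not pass, and squares mark 10 probe sets below the median signal; all Itga3 and Itga9 probe sets passed in 1 direction each, while those of Itgav and Itgb5 straddle 0.

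Of the beta chains, Itgb1 alone passed. Itgb1, the partner of most of these alpha chains, read 10.40, 10.48, 10.44 and 10.44 in the Ctr9 esiRNA arrays, against 9.85, 9.87, 9.98 and 9.95 in the luciferase arrays. The Ctr9 esiRNA arrays were all higher, by 0.53 on average (SE 0.048, limma adjusted p = 2.76e-05). Its mean was 10.44 ± 0.033 with Ctr9 esiRNA and 9.91 ± 0.060 with luciferase esiRNA (SD, n = 4 each). The next brightest Itgb1 probe set rose by 0.49 (SE 0.050), and 2 probe sets marked _x_at, some of whose probes can match other sequences, rose by 0.33 each (SE 0.042 and 0.076). The dimmer of those 2 Itgb1 probe sets lost its call without luciferase arrays 3 and 4 (limma adjusted p = 0.0957).

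The dimmest pair of Itgb1 probe sets did not pass, at 0.14 (SE 0.052, limma adjusted p = 0.0709) and 0.00073 (SE 0.080). The first of these passed without Ctr9 esiRNA replicate 4 (limma adjusted p = 0.0384). Both lie far below the median probe set. With the mean over all 6 Itgb1 probe sets in place of the brightest, Itgb1 rose by 0.30 and still passed.

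Itgb4, which pairs with the alpha 6 chain and joins keratin filaments in hemidesmosomes, is read by 1 probe set. It read 6.12, 6.43, 6.26 and 6.13 in the Ctr9 esiRNA arrays, against 6.47, 6.28, 6.42 and 6.56 in the luciferase arrays. The groups overlapped, as Ctr9 esiRNA replicate 2 (6.43) lay above luciferase replicates 2 (6.28) and 3 (6.42). The difference of -0.20 (95% interval -0.39 to -0.01, limma adjusted p = 0.114) did not pass, but without Ctr9 esiRNA replicate 2 it was -0.27 (limma adjusted p = 0.0335).

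Itgb5, the partner of the alpha v chain in a vitronectin receptor, read 8.68, 8.72, 8.71 and 8.81 with Ctr9 esiRNA, against 8.66, 8.62, 8.61 and 8.73 with luciferase esiRNA. The groups overlapped, and the difference of 0.08 (95% interval -0.04 to 0.19, limma adjusted p = 0.324) did not pass. The 4 Itgb5 probe sets, all above the median probe set, differed by -0.05 to 0.08. The upper bounds of their 95% intervals did not exceed 0.20.

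The array also names 14 of 16 other integrin subunits, of which 2 rose and 3 fell, and 10 of the 14 read below the median probe set. Itgal, the alpha chain of a leukocyte integrin, fell by 0.70 (SE 0.103) and both of its probe sets were lower. Itga8, a receptor chain for nephronectin, rose by 0.68 (SE 0.106) on a dim probe set and by 0.57 on its other one. Itgb8, whose product activates latent TGF-beta together with the alpha v chain, rose by 0.61 (SE 0.139) at very low signal, and its groups overlapped. Itgb7, a beta chain of lymphocyte integrins, fell by 0.31 (SE 0.069).

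Itgb3, a platelet and vitronectin receptor chain, fell by 0.27 (SE 0.080) with overlapping groups, and its other probe set differed by 0.03. The Itgb3 call ended without Ctr9 esiRNA replicate 1, 2 or 4 and without luciferase replicate 1, 2 or 3 (limma adjusted p = 0.0702 to 0.0902), without luciferase arrays 1 and 2 (0.212) or 3 and 4 (0.0579), and with the mean of its probe sets (0.0945). The call of Itgb7 ended without luciferase arrays 1 and 2 (limma adjusted p = 0.0728) and that of Itgb8 without arrays 3 and 4 (0.0685). The other 9 genes did not pass, and the median of the 14 was 0.0025.

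The matrix ligands were read from lists chosen with earlier results of these data known. Of 10 measured laminin chains, 2 rose and 3 fell, at a median of -0.05. Lama1, the alpha chain of the embryonic laminin, read 8.36, 8.65, 8.69 and 8.71 with Ctr9 esiRNA, against 9.55, 9.69, 9.77 and 9.69 with luciferase esiRNA, and fell by 1.07 (SE 0.082). Lamb1, its usual beta partner, rose by 0.52 (SE 0.055), and the gamma chain gene Lamc1 fell by 0.25 (SE 0.052). Lama3, an epithelial laminin chain, fell by 0.34 (SE 0.086). The alpha chain gene Lama5, named after its value was seen, rose by 0.32 (SE 0.087, limma adjusted p = 0.0216) on its brightest probe set. The other Lamc1 probe set differed by -0.24 (limma adjusted p = 0.0634) and the other Lama3 one by -0.03 (limma adjusted p = 0.823). The calls of Lamc1 and Lama3 ended without luciferase arrays 3 and 4 (limma adjusted p = 0.0534 and 0.0558).

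Of 10 measured collagen genes, 4 rose and 0 fell, at a median of 0.17. The basement membrane collagens Col4a1 (0.65, SE 0.059) and Col4a2 (0.38, SE 0.055) and the fibrillar collagen Col5a2 (0.74, SE 0.093) rose. Col1a2, another fibrillar chain and a fibroblast marker, rose by 0.24 (SE 0.072). Its call ended with the mean of its probe sets (limma adjusted p = 0.0995), with the replicate block (0.0507), without luciferase arrays 1 and 2 (0.209) or 3 and 4 (0.0534), without luciferase replicate 1, 2 or 3, and without Ctr9 esiRNA replicate 1 or 4 (0.0509 to 0.0878).

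Of 15 measured RGD and other ligands, 4 rose and 3 fell, at a median of 0.02. Fn1, which encodes fibronectin, a ligand of the Itga5 product, read 11.34 in each of 3 Ctr9 esiRNA arrays, against 11.72, 11.81, 11.89 and 11.86 in the luciferase arrays. Its value in Ctr9 esiRNA array 1 is empty, and Fn1 fell by 0.48 (SE 0.055) over the 7 values left. The other Fn1 probe set, with all 8 values, fell by 0.76 (SE 0.086). The matricellular protein genes Ccn1 (1.68, SE 0.051), Ccn2 (1.34, SE 0.048) and Thbs1 (1.46, SE 0.102), whose products bind several integrins, rose on all of their probe sets. The Ccn1 value comes from a probe set marked _x_at, and the other Ccn1 probe sets rose by 0.59 to 1.73. Vtn and Tnc, which encode vitronectin and tenascin C, differed by 0.02 and 0.03 at low signal and were named after their values were seen, as ligands of the Itgav and Itga9 products.

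Inside the cell, 20 genes that link integrin tails to actin were measured, of which 6 rose and 5 fell, at a median of 0.08. Zyx, a focal adhesion protein gene, rose by 1.30 (SE 0.074). Ilk, which encodes the integrin-linked pseudokinase bound to beta tails, rose by 0.75 (SE 0.047). Parvb, a parvin that binds the Ilk product, fell by 0.72 (SE 0.071). Another parvin gene, Parva, named after its value was seen, rose by 0.51 (SE 0.103, limma adjusted p = 0.00486) on its brightest probe set. The LIM protein gene Ldb3 fell by 0.63 (SE 0.068) on the brightest of its 3 probe sets, the others not passing.

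Of 17 measured adhesion signalling genes, 6 rose and 2 fell, at a median of 0.09. The scaffold gene Bcar1, whose product p130Cas is phosphorylated at adhesions, rose by 0.66 (SE 0.050), and the adaptor gene Shc1 rose by 0.43 (SE 0.067). Elmo1 rose by 0.28 (SE 0.046) and Dock1, whose product forms a Rac activator with that of Elmo1, fell by 0.32 (SE 0.056).

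Among 17 regulators and membrane partners of integrins, 5 rose and 2 fell, at a median of 0.06. Cd151, a tetraspanin that binds the alpha 3 and alpha 6 integrins, rose by 0.33 (SE 0.047), and 4 of its 6 probe sets were higher. Its brightest probe set is marked _x_at, and a Cd151 probe set without that mark rose by 0.34. The tetraspanin gene Cd9 fell by 0.43 (SE 0.049), the tetraspanin gene Tspan4 rose by 0.36 (SE 0.048), and Cd47, an integrin-associated protein gene, rose by 0.57 (SE 0.061). Of the 5 Cd47 probe sets 2 were higher, and the others differed by -0.13 to 0.13 without passing.

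Of 5 hemidesmosome genes, the site of the Itgb4 product, Dst fell and 4 did not pass, at a median of -0.03. Dst fell by 0.27 (SE 0.069) on its brightest probe set, another of its 4 probe sets rose by 0.30 (SE 0.067), and the call ended with their mean (-0.05, limma adjusted p = 0.545) and without luciferase arrays 3 and 4 (0.131). In all these lists together, 108 of 119 genes had a named probe set. The lists' shares called can be read beside the 30.8% of all genes. Among genes whose brightest probe set is at or above the median probe set, 42.1% were called. There lie 19 of the 20 adaptor genes, 16 of the 17 signalling genes and 16 of the 17 regulators and partners.

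**Figure D3:**
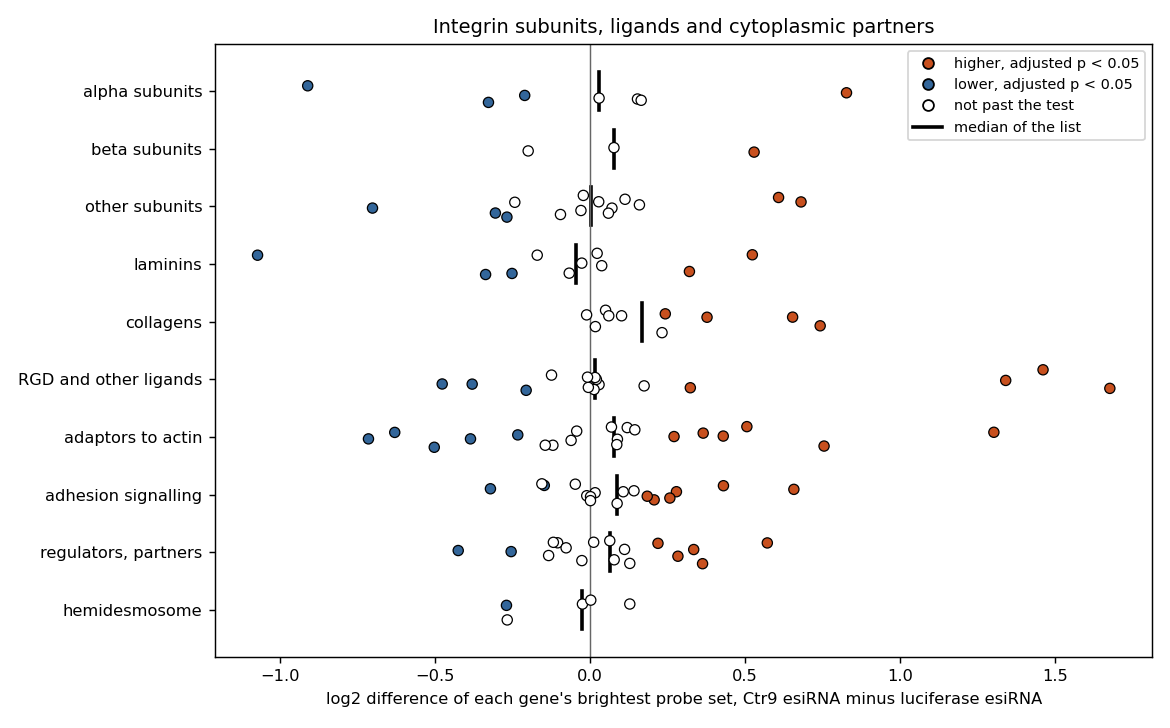
Log2 difference (Ctr9 esiRNA minus luciferase esiRNA) of every measured gene in the integrin, ligand and cytoplasmic partner lists, each point being 1 gene's brightest probe set and the black bar the list's median. Orange marks higher, blue lower and white not past an adjusted p of 0.05; the medians lie between -0.05 and 0.17, with Ccn1, Thbs1, Ccn2 and Zyx farthest to the right and Lama1 and Itga9 farthest to the left.

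Over 18 alternative settings (17 for Itga2 and Itga7, which a filter on dim probe sets removes), Itga3, Itga5, Itga9 and Itgb1 were called in the same direction in each. Their differences ran from 0.71 to 0.90 for Itga3, from -0.36 to -0.19 for Itga5, from -1.01 to -0.65 for Itga9 and from 0.30 to 0.58 for Itgb1. Itga6 was called in 17 of 18 settings, Itgav in 3 and Itgb4 in 1. Itgb5, Itga2 and Itga7 were called in none.

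**Figure D4:**
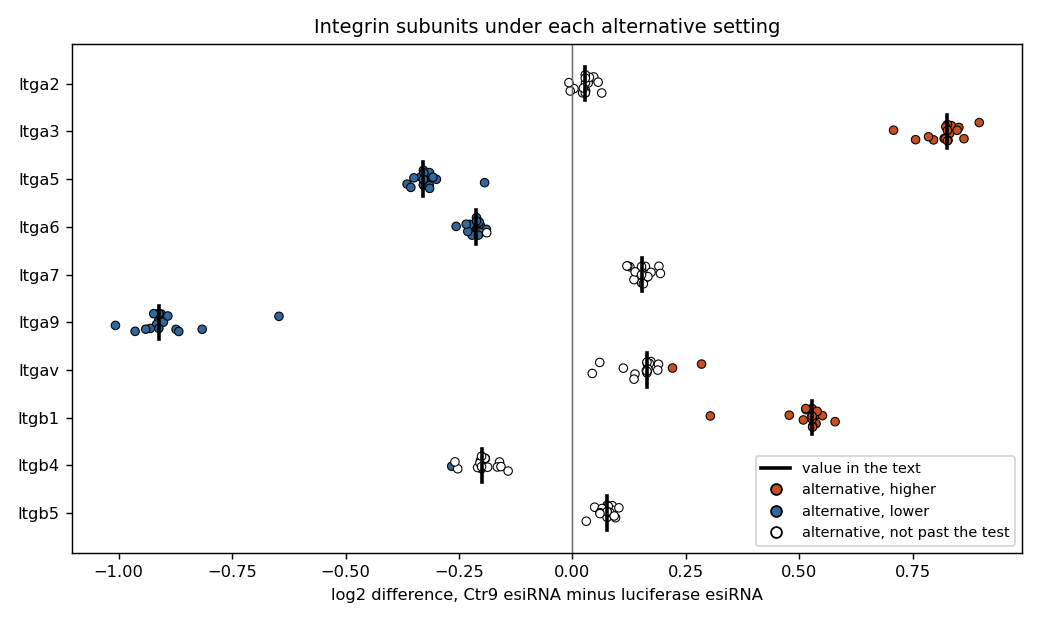
Log2 difference (Ctr9 esiRNA minus luciferase esiRNA) of the 10 integrin subunit genes under each alternative setting (points) and as given in the text (black bars), with filled points past an adjusted p of 0.05. Itga3, Itga5, Itga9 and Itgb1 are filled throughout, Itga6 loses its call in 1 setting and Itgav gains one in 3.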

How the data were processed

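Per the labels' protocols, biotin-labelled RNA of 8 samples was hybridised, 1 array each. The authors deposited 1 log2 signal per probe set and array, and GCOS 1.4 and RMA are named in the submitters' processing notes. RMA corrects for background, which compresses differences at low signal, and brings the arrays to 1 distribution of probe intensities. Its settings were not given in the sources used. Upper quartiles of the deposited probe set signals ran from 8.10 to 8.15 over the arrays. The log2 values were used as deposited, after leaving out 64 control probe sets. Among the 45037 tested, 34945 have 1 symbol in the platform annotation, updated by Entrez identifier (34741 found in the GRCm38.p6 gene table), 932 have several and 9160 are unnamed here. Each gene is represented by the brightest probe set carrying its symbol alone. The 456 empty values, at most 1 per probe set, were left out of the fit and filled with the group mean for sums and means over probe sets, and no integrin subunit probe set has one.

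Groups were compared with limma 3.58.1 in R 4.3.3 (lmFit, eBayes, two-sided), and SE is the moderated standard error. The fit was tested on simulated arrays. No set test was run. Levels of different probe sets were compared only to pick a gene's brightest and to place probe sets around the median. Marker sums add linear signals of different probe sets. Alternatives were a filter on dim probe sets, median centring, quantile normalization, array weights, a trended robust prior, a replicate block, complete values, probe set means and leaving out arrays. Members, lists and tests were chosen with earlier results of these data known. Named are all members, all other subunits that passed and up to 4 genes per list with the smallest adjusted p. A few further genes are marked as named after their values were seen. Figures were drawn with matplotlib 3.10.9.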

Additional observations from a re-analysis of the deposited data

Results flagged for a closer look

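In 11 of 255 groups of 4 arrays examined, 1 array stood apart from the other 3 by more than Dixon's critical value allows, which chance gives in about 1 in 20 groups. Among the integrin subunits this held for 2 of 60 groups, both in dimmer probe sets. The second brightest Itga5 probe set read 5.96 in Ctr9 esiRNA replicate 3, against 6.25 to 6.28 in the others. The second brightest Itgav probe set read 7.48 in Ctr9 esiRNA replicate 2, against 7.06 to 7.10.

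Among the other named genes, Ctr9 esiRNA replicate 1 was low for Lama1 (8.36, against 8.65 to 8.71) and for the dimmer Parvb probe set (5.76, against 5.89 to 5.90), and high for Col1a2 (6.56, against 6.27 to 6.31). Ctr9 esiRNA replicate 2 was high for the dimmer Bcar1 probe set (8.46, against 8.35 to 8.36). Ctr9 esiRNA replicate 3 was low for Ccn1 (9.49, against 9.57 to 9.58), and Ctr9 esiRNA replicate 4 was low for a dimmer Ldb3 probe set (5.65, against 5.84 to 5.88). Luciferase replicate 4 was high for Ccn2 (9.55, against 9.47 to 9.48) and a dim Cd151 probe set (5.28, against 5.21 to 5.22), and low for Plac1 (4.95, against 5.07 to 5.08), a placental gene among the trophoblast markers.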

How the results depend on the processing

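The alpha count of 9 called probe sets ran from 7 (4 higher and 3 lower, without luciferase arrays 1 and 2) to 11 over the alternatives and the beta count of 4 from 3 to 5. With 1 array left out, 9 to 11 alpha and 4 to 5 beta probe sets, 5 to 6 integrin subunit genes and 9556 to 10135 of all probe sets were called, against 11209 with all arrays. With the replicate number as a block, 9 alpha and 4 beta probe sets and 9771 of all were called. The deviations of same-numbered arrays correlated at 0.061, -0.078, 0.063 and -0.067. Of the 4 Ctr9 esiRNA arrays, 2 correlated best with the luciferase array of their own number. Whether the numbers pair the samples cannot be told from so few arrays. With dim probe sets left out, 2 of the other integrin subunits were called, against 5 in the report. The called genes Itga8, Itgb8 and Itgb3 lie below the median probe set and were removed by this filter. In the same setting 2 hemidesmosome genes were called, against 1 in the report, with fewer probe sets in the adjustment. With the mean of each gene's probe sets, 0 hemidesmosome genes were called. The mean of the Ctr9 probe sets differed by 0.027. Differences whose sign turned were all far from the threshold: Itga2 differed by -0.0077 without luciferase arrays 1 and 2 and by -0.0047 to 0.057 with 1 array left out. The dimmest Itga5 probe set ran from -0.026 to 0.013, the second Itgav one from -0.020 to 0.12, the dimmest Itgb1 one from -0.038 to 0.075 and the dimmest Itgb5 one from -0.012 to 0.096 with 1 array left out. The dimmest Itgb1 probe set was -0.00028 with quantile normalization, -0.010 with array weights and -0.062 without luciferase arrays 3 and 4, and the dimmest Itgb5 one -0.022 without these arrays. Low signal limits what can be said of Itga2, Itga7 and the dim probe sets of Itga5, Itgav and Itgb1.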

Other observations

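The genes whose brightest probe set most resembled those of Itga3 and Itgb1, the alpha and beta subunits with the smallest adjusted p on a gene's brightest probe set, were found among 18017 genes as those with the smallest mean absolute difference over the 8 arrays after each was centred on its own mean. For Itga3 these were Bbx, which encodes an HMG box protein, at 0.035, the imprinted gene Mest at 0.047 and the hypoxia-inducible factor gene Epas1 at 0.051. For Itgb1 they were Scaf11 at 0.023, the receptor tyrosine phosphatase gene Ptprf at 0.023 and Trp53bp1, a DNA repair protein gene, at 0.024. All 6 share their arrays with the subunits, and 2 levels, 1 per treatment, make up most of each pattern. Bbx, Mest and Epas1 were higher with Ctr9 esiRNA by 0.80, 0.86 and 0.78, and Scaf11, Ptprf and Trp53bp1 by 0.56, 0.54 and 0.55.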
